A study of Mus musculus with 48 samples.

Results

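AP-1 is a transcription factor made of a JUN-family protein paired with a FOS-family or related protein, and the immediate early genes are those whose transcripts appear within minutes of a stimulus without new protein synthesis. Described here are 10 such genes of the mouse, 10 of 21025 gene models in the files, chosen by name: the AP-1 genes JUN, JUNB, JUND, FOS and FOSB, the zinc finger genes EGR1, EGR2 and EGR3, and the immediate early response genes IER2 and IER3. The files write mouse symbols in capitals, which is kept here, and each gene had 1 row. Each was read in 30 RNA-sequencing libraries of early B-lineage cells. In these Ikzf1, the gene of the transcription factor Ikaros, was deleted, knocked down or, in control and wild-type cells, kept in at least 1 copy. The 18 chromatin immunoprecipitation samples of the series were not analysed here.

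The deleted groups were Ikzf1(fl/-) Cd79a(Cre/+) and their controls Ikzf1(fl/+) Cd79a(Cre/+), so that the controls also carried a floxed allele and the Cre recombinase. Titles of chromatin samples in the series write such control pro-B cells as Ikzf1(∆/+). By genotype, the deletion comparisons thus set cells without an intact allele against heterozygous cells, not against cells with both alleles intact. Cd79a is a B-lineage gene, which sets where the Cre is made. These genotypes were compared in pro-B cells, in c-Kit-high pro-B cells and in pro-B cells that were also Rag2(-/-) and so lacked the recombinase needed to assemble antigen receptors, with 2 libraries per genotype and setting. Another 2 libraries were of wild-type total pre-B cells, the stage that follows pro-B cells. In the last experiment, pre-pro-B cells labelled Ebf1(-/-), a genotype without a factor needed to become pro-B cells, carried the Ikaros knock-down constructs Ik4056 or Ik2709, the control construct Ren713 or an empty vector, with 4 libraries each. Every library was labelled C57BL/6, and no age was given. Whether libraries of a group stem from different animals or cultures is not in the labels, so a p-value here covers the spread among these libraries alone, which may be technical.

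FOS, FOSB, EGR1, EGR2, EGR3 and IER2 are classical targets of growth factor and antigen receptor signalling, reached through the ERK kinases, the serum response factor and the CREB factors. Their transcripts are short-lived, so a level is a snapshot of recent signalling. JUN and JUNB are inducible as well, while JUND is made in most cells without a stimulus. JUN and FOS proteins form the classical AP-1 heterodimer, which activates genes of growth, survival and differentiation, and IER3 encodes a small stress-induced protein that regulates apoptosis.

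The promoters of 5 of these genes are shown because the calls for JUN and IER3 were the ones that held under every alternative in 2 settings each, and because FOS, FOSB and EGR2 were all highest in the same run of libraries. Each sequence is the 250 bases before a gene start in RefSeq, build GRCm38.p6, 5′ to 3′ on the gene's strand, whereas the expression files use mm9. Promoters of 7 of the 10 genes were used. EGR2 had 5 listed starts, and the start given was chosen for holding a CArG box, the site of the serum response factor. Capitals mark matches, on both strands, to the AP-1 site TGANTCA, to the cyclic AMP response element with 1 free base TGACNTCA, to its half-site TGACG and to the CArG box, and on the gene's strand to the TATA box TATAAA. The half-site lies within TGACNTCA where the free base is G.
JUN, chr4:95052223-95052472, minus strand: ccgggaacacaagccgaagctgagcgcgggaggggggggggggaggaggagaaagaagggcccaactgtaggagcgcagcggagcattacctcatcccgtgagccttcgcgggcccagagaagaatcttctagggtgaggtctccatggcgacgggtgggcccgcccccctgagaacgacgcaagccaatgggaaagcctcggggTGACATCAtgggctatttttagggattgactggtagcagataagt
IER3, chr17:35821463-35821712, plus strand: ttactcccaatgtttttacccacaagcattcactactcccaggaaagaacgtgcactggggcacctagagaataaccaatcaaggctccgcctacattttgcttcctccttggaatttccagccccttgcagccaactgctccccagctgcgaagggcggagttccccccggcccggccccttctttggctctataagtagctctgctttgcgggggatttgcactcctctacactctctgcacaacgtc
FOS, chr12:85473640-85473889, plus strand: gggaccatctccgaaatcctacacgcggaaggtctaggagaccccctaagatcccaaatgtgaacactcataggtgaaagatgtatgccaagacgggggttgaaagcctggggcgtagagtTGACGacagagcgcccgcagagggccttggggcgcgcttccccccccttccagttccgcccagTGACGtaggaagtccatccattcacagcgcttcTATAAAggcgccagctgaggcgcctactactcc
FOSB, chr7:19310046-19310295, minus strand: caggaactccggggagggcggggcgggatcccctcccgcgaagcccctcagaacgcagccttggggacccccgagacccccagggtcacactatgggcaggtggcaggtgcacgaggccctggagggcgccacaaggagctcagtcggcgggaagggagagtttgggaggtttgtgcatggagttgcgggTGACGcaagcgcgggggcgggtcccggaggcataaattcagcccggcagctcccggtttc
EGR2, chr10:67537619-67537868, plus strand: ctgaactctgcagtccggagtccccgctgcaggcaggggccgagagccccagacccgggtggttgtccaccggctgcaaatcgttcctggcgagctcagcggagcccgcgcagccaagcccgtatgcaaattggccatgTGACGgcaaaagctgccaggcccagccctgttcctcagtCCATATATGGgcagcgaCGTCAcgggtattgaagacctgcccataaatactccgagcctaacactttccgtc
The JUN promoter held TGACNTCA from 45 to 38 bases before the start. FOS held TGACG from 129 to 125 and from 66 to 62 bases before the start and TATAAA from 33 to 28, and FOSB held TGACG from 60 to 56. The EGR2 window held the CArG box it was chosen for from 72 to 63, so its presence is no result. It also held TGACG from 111 to 107 on the gene's strand and from 55 to 51 on the other. In the IER3 window none of these letters was found. Among 32851 promoters of the same length, 6.75% held TGANTCA, 7.49% TGACNTCA, 17.8% TGACG, 1.47% a CArG box and 7.59% TATAAA. The Ikaros core GGGAA was present in 56.2% of them and in each of the JUN, IER3, FOS and FOSB windows, but not in the EGR2 window shown.

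Several features of the libraries bear on what follows. Levels are in RPKM, which counts reads per kilobase and per M (mega) mapped reads, and in 26 libraries their steps imply depths of 2.31 to 36.1 M reads. The second c-Kit-high control library was the shallowest, at 2.31 M. In the second deleted and the first control c-Kit-high library and in both pre-B libraries the values had several step sizes, so no depth is given for those 4. IKZF1 had 45.3 and 48.9 RPKM in deleted and 59.2 and 56.4 RPKM in control pro-B cells, a difference that was not called (limma, adjusted p = 0.178). Its fall was called in c-Kit-high cells (log2 fold change -0.58, adjusted p = 0.0144), in Rag2-null cells (-0.62, adjusted p = 0.00893) and with the knock-down constructs (-1.57, adjusted p = 6.54e-06). The RPKM covers the whole gene model, so the deleted part of Ikzf1 was not checked apart. Of the B-lineage markers PAX5, a factor that commits cells to that lineage, averaged 75.8 to 319 RPKM in the pro-B and pre-B groups and was at most 0.296 RPKM in any library of the knock-down experiment. Other B-lineage genes were present there, with EBF1 at 14.8 to 32.1, DNTT at 6.38 to 35.7 and CD79B at 3.21 to 20.6 RPKM over the 16 libraries, so transcripts of EBF1 itself were counted in cells labelled as null for it, and its deleted part was not checked apart. Summed over 12 B-lineage markers, RPKM was 95.7 to 185 with the knock-down and 66.7 to 167 with the control constructs, and of 9 tested 4 were called higher and 2 lower. Over 9 granulocyte markers, summed RPKM was 6997 to 7150 in the pre-B libraries, which were labelled as total. It was 139 and 298 in the deleted and 101 and 622 in the control c-Kit-high libraries, against at most 13.6 in the other pro-B libraries. The part of this RNA in the pre-B and c-Kit-high results was not tested. In the knock-down experiment the sum was 536 to 1365 with the knock-down constructs and 30.3 to 126 with the control constructs, of which PRTN3 averaged 764 RPKM with the knock-down and 15.8 RPKM with the control constructs, while S100A8, S100A9, NGP and CAMP stayed under 1 RPKM in each of those libraries. These are bulk samples, in which fewer cells of a type and less RNA per cell cannot be told apart.

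By level per length, JUND led with a median of 217 RPKM over the 30 libraries, followed by IER2 with 88.2, JUNB with 49.4, JUN with 15.4, IER3 with 14.9, EGR1 with 14.7 and FOS with 8.17 RPKM. FOSB had a median of 0.802 RPKM, EGR2 of 0.194 and EGR3 of 0.0784. JUNB, JUND and IER2 varied least, with the highest library 3.03, 3.92 and 5.95 times the lowest. In FOSB that ratio was 122, in FOS 95.2, in EGR1 44.8, in JUN 39.2 and in IER3 28.6.

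In each setting 2 to 5 of these genes changed when Ikzf1 was deleted or knocked down, and their directions were mixed in c-Kit-high and Rag2-null cells. A gene was tested in a fit if it had at least 1 RPKM in at least 2 of the fit's libraries and called where its p, adjusted by Benjamini-Hochberg over all genes tested, was under 0.05. That left 9 of the 10 in each fit, without EGR2 in the pro-B and pre-B libraries and without EGR3 in the knock-down libraries. In pro-B cells JUN and JUNB fell and none rose, 2 of 9 or 22.2%, against 23.4% of all genes called there, 13.5% higher and 9.89% lower. In c-Kit-high cells JUNB and IER2 fell and IER3 rose, 3 of 9 or 33.3%, against 17.2% of all genes, 11.6% higher and 5.6% lower. In Rag2-null cells JUN, JUND, EGR1 and IER3 rose and JUNB fell, 5 of 9 or 55.6%, against 22.3% of all genes, 15.5% higher and 6.84% lower. With the knock-down constructs JUN and IER3 rose and none fell, 2 of 9 or 22.2%, against 19.4% of all genes, 13.4% higher and 6.04% lower. The shares in pro-B and knock-down cells were near those of all genes, so the counts there say nothing particular of these genes. The knock-down counts, here and for the other gene lists below, come from the fit without the run of library numbers as a block. That fit leaves out the pairing of libraries by run, which was accepted as given below. With the run as a block IER2 was called too, so 3 of 9, beside 5575 of 10744 genes. The knock-down share and its background thus depend on the block. The median log2 fold change of the 9 tested genes was -0.34 in pro-B, -0.42 in c-Kit-high, 0.44 in Rag2-null and 0.14 in knock-down cells, where the medians of all genes tested were 0.03, 0.03, 0.06 and 0.01.

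**Figure D1:**
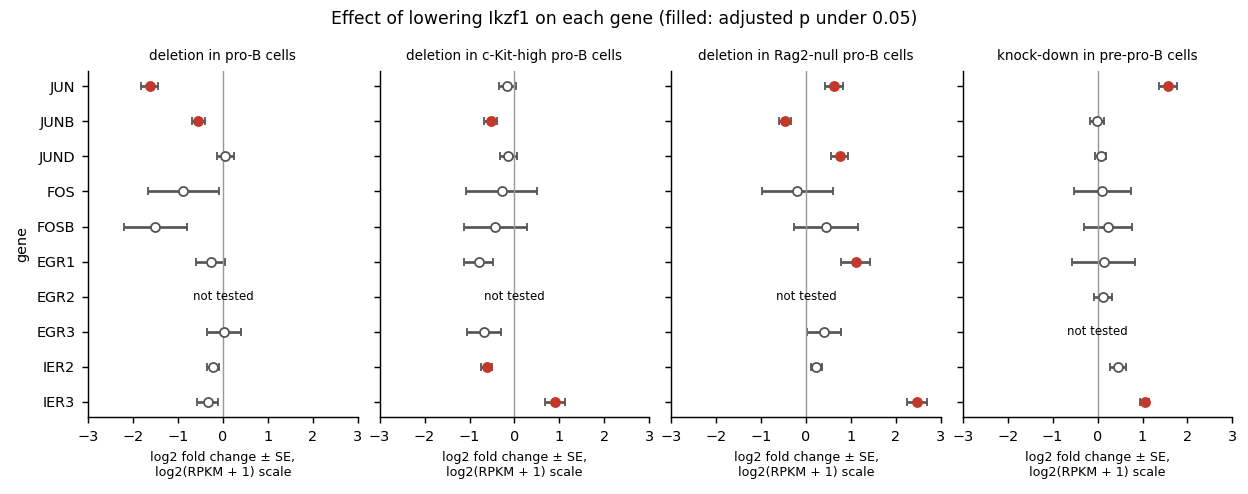
Log2 fold change of each gene with its standard error, on the log2(RPKM + 1) scale, for deleted minus control in 3 kinds of pro-B cell and for knock-down minus control constructs in pre-pro-B cells. Filled points are called at an adjusted p under 0.05, in the knock-down without the run of library numbers as a block. JUN lies at -1.63 in pro-B cells and at 1.57 in the knock-down, and IER3 reaches 2.46 in Rag2-null cells.

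JUN, a strongly activating subunit of AP-1, fell in pro-B cells and rose in Rag2-null and knock-down cells. It had 20.7 and 15.6 RPKM in deleted pro-B cells, against 51.8 and 64.3 RPKM in control pro-B cells. Both deleted libraries were below both controls, and the control mean was 3.2 times the deleted mean. Such a separation of 2 from 2 libraries, here and below, is weak evidence by itself. In pro-B cells it was also seen for FOSB, IER2 and IER3, which were not called. The share of all genes that separate in this way was not counted. The log2 fold change was -1.63 (SE 0.19, adjusted p = 6.33e-05) and stayed between -1.83 and -1.44, always called, in the alternatives tried. B-lineage markers moved in the same libraries, with 3 of 12 called higher and 6 lower, and summed to 3018 to 3328 RPKM in deleted and 3750 to 3757 RPKM in control pro-B cells. Granulocyte markers summed to 5.32 to 7.19 RPKM in deleted and 0.177 to 0.481 RPKM in control pro-B cells, and erythroid and megakaryocyte markers to 9.01 to 12.9 RPKM in deleted and 2.15 to 2.81 RPKM in control pro-B cells. Their part in the fall of JUN was not tested. In c-Kit-high cells JUN had 62.7 and 60.1 RPKM in deleted and 59 and 80 RPKM in control libraries, which overlapped (log2 fold change -0.16, adjusted p = 0.637). Rag2-null cells had 53.4 and 37.2 RPKM when deleted and 28.4 and 29.0 RPKM as controls, so both deleted libraries were above both controls. This rise (log2 fold change 0.62, SE 0.19, adjusted p = 0.038) rested on single libraries, since it was not called without the first deleted (0.36, adjusted p = 0.314), the first control (adjusted p = 0.102) or the second control library (adjusted p = 0.111), nor after quantile normalization (adjusted p = 0.0724) or median-ratio scaling (adjusted p = 0.0951).

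The effect of deletion on JUN itself differed between the settings. In Rag2-null cells it was 2.25 higher on the log2 scale than in pro-B cells (SE 0.27, adjusted p = 0.000244), in a comparison that called 13.1% of all genes. In c-Kit-high cells it was 1.47 higher (SE 0.27, adjusted p = 0.0082), in a comparison that called 6.7% of all genes. Both differences use the same 4 pro-B libraries, and the c-Kit-high difference was not called with all 30 libraries in 1 fit (adjusted p = 0.0751) or without the c-Kit-high libraries of several step sizes (1.28, adjusted p = 0.0511). Of the 9 genes tested, JUN and IER3 were the ones called in both differences, 22.2% in each.

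With the knock-down constructs JUN was higher in each of the 4 runs of library numbers. It had 14.6, 9.62, 5.69 and 15.3 RPKM with Ik4056 and 10.6, 10.9, 11.2 and 20.4 RPKM with Ik2709. In control cells it had 2.39, 3.59, 3.56 and 3.96 RPKM with Ren713 and 2.04, 2.76, 3.44 and 5.11 RPKM with the empty vector. The 8 knock-down libraries all lay above the 8 control libraries, and the mean was 12.3 ± 4.43 against 3.35 ± 0.968 RPKM (SD, n = 8 each). The log2 fold change was 1.57 (SE 0.20, adjusted p = 3.43e-05), opposite in sign to that in pro-B cells. That difference in sign between cell types was not tested. The 5 granulocyte markers tested were also called higher with the knock-down constructs, and 6 of 7 monocyte and macrophage markers. Their part in the rise of JUN and IER3 was not tested.

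**Figure D2:**
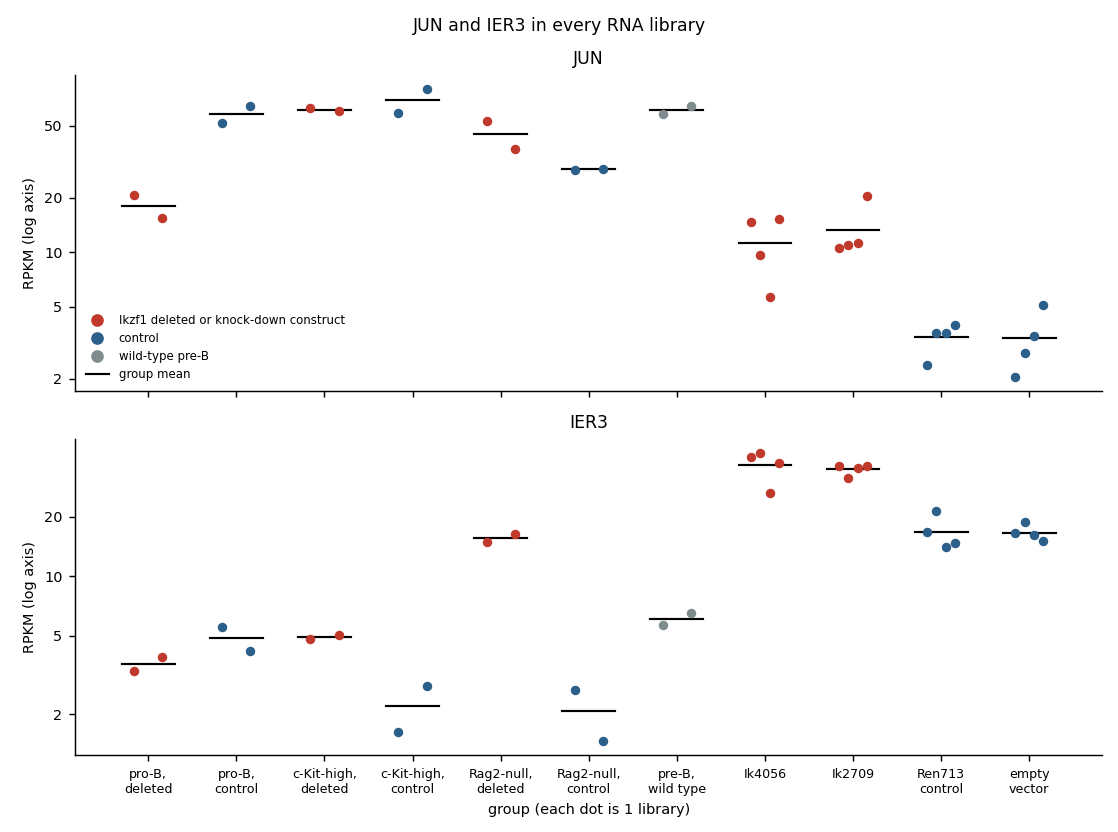
RPKM of JUN and IER3 in each of the 30 libraries, on log axes, by group, with group means as lines. JUN sits between 15.6 and 20.7 RPKM in deleted pro-B cells, below both controls, and between 5.69 and 20.4 RPKM with the knock-down constructs, above every control library. IER3 sits at 14.8 and 16.3 RPKM in deleted Rag2-null cells, above both of their controls.

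IER3 rose in 3 of the 4 settings. In deleted Rag2-null cells it had 14.8 and 16.3 RPKM, against 2.67 and 1.47 RPKM in Rag2-null controls, and the ratio of the means was 7.54. The log2 fold change was 2.46 (SE 0.22, adjusted p = 9.23e-06). Summed granulocyte markers were 9.16 to 13.6 RPKM in these deleted and 0.153 to 0.688 RPKM in these control libraries, and monocyte and macrophage markers were 41.1 to 49.6 RPKM in these deleted and 11.6 to 28.5 RPKM in these control libraries. Their part in the Rag2-null results was not tested. Knock-down cells had 40, 42, 26.2 and 37.5 RPKM with Ik4056 and 35.9, 31.5, 35.2 and 36 RPKM with Ik2709. Their controls had 16.7, 21.3, 14 and 14.6 RPKM with Ren713 and 16.5, 18.9, 16.1 and 15 RPKM with the empty vector. Again the 8 knock-down libraries were above the 8 controls, also within each of the 4 runs (log2 fold change 1.05, SE 0.10, adjusted p = 2.18e-06). The rises of IER3 in Rag2-null and knock-down cells held under each alternative tried.

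In c-Kit-high cells IER3 had 4.79 and 5.03 RPKM when deleted, against 1.64 and 2.77 RPKM in controls. Both deleted libraries were higher, but the call (log2 fold change 0.91, SE 0.22, adjusted p = 0.0143) was lost without either deleted library (adjusted p = 0.0615 without the first and 0.0784 without the second), without the first control library (0.65, adjusted p = 0.0967) and with these groups fitted alone (adjusted p = 0.0623). Without both libraries of several step sizes the log2 fold change was 0.62 (adjusted p = 0.216). In pro-B cells IER3 had 3.33 and 3.9 RPKM when deleted and 5.54 and 4.21 RPKM in controls, a difference that was not called (adjusted p = 0.319). The deletion effect in Rag2-null cells was 2.80 higher on the log2 scale than in pro-B cells (SE 0.32, adjusted p = 0.000163). That in c-Kit-high cells was 1.25 higher (SE 0.32, adjusted p = 0.0353), which was not called when any of the pro-B libraries (adjusted p = 0.0631 to 0.139) or either deleted c-Kit-high library (0.0963 and 0.0961) or the first c-Kit-high control (0.0785) was left out.

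JUNB, a JUN protein that often restrains JUN, was lower with deletion in each kind of pro-B cell by similar amounts. It had 47.6 and 37.9 RPKM in deleted and 54.1 and 72.1 RPKM in control pro-B cells, 26 and 27.2 RPKM in deleted and 39.9 and 37.6 RPKM in control c-Kit-high cells, and 38.9 and 36.7 RPKM in deleted and 51 and 54.3 RPKM in control Rag2-null cells. No deleted library reached its controls. The log2 fold changes were -0.55 (adjusted p = 0.0155), -0.53 (adjusted p = 0.0242) and -0.47 (adjusted p = 0.0345), each with a standard error of 0.14. All 3 calls were fragile: the first was lost without the second deleted (-0.39, adjusted p = 0.152) or the second control library (-0.34, adjusted p = 0.186), the second without any 1 of its 4 libraries (adjusted p = 0.0659 to 0.119) and the third likewise (0.0597 to 0.163). With the knock-down constructs JUNB averaged 53.4 ± 13 RPKM and with the controls 53.6 ± 11.4 RPKM (SD, n = 8 each), which was not called (adjusted p = 0.986).

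JUND, the JUN protein that most cells make without a stimulus, rose in Rag2-null cells and was not called in the other 3 settings (adjusted p = 0.694 to 0.887). It had 350 and 375 RPKM in deleted Rag2-null cells, against 207 and 223 RPKM in their controls, and the libraries did not overlap. The log2 fold change of 0.75 (SE 0.19, adjusted p = 0.0135) was no longer called without the second deleted (0.70, adjusted p = 0.0826) or the first control library (0.70, adjusted p = 0.0573). The difference from its effect in pro-B cells was not called (0.70, adjusted p = 0.122). Within the summed RPKM of the 3 JUN genes, JUN made up 7.74 to 7.87% in deleted and 19.7 to 21.1% in control pro-B cells. In Rag2-null cells its share was 8.3 to 12.1% in deleted and 9.47 to 9.93% in control libraries, which overlapped. In the knock-down experiment JUN made up 1.81 to 8.23% with the knock-down constructs and 0.784 to 2.31% with the control constructs, and JUND at least 60.7% in every library there.

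FOS and FOSB varied widely between the libraries of most groups, and in pro-B cells neither they nor EGR1 was called. FOS, the main partner of JUN, had 30.2 and 5.08 RPKM in deleted and 18.8 and 31.5 RPKM in control pro-B cells (adjusted p = 0.496). FOSB, its close relative, had 6.48 and 0.634 RPKM in deleted and 6.54 and 12.0 RPKM in control pro-B cells (adjusted p = 0.167), without overlap, and was called lower without the first deleted library (log2 fold change -2.60, adjusted p = 0.0181). EGR1, which activates genes of growth and differentiation, had 27.7 and 18.6 RPKM in deleted and 23.4 and 32.6 RPKM in control pro-B cells (adjusted p = 0.62). In all 3 genes the second deleted library was the lowest of the 4 and the second control library the highest. In c-Kit-high cells EGR1 had 4.51 and 7.36 RPKM when deleted and 11.1 and 10.6 RPKM in controls, without overlap and without a call (adjusted p = 0.129).

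EGR1 rose in Rag2-null cells, with 11.5 and 11.9 RPKM in deleted and 2.98 and 7.8 RPKM in control libraries. The log2 fold change was 1.10 (SE 0.33, adjusted p = 0.034). It was not called without either deleted library (adjusted p = 0.121 and 0.134), without the first control library (0.53, adjusted p = 0.206), after quantile normalization (adjusted p = 0.11) or median-ratio scaling (adjusted p = 0.0583). The difference from its effect in pro-B cells was not called (1.38, adjusted p = 0.081) but was without the second control library (1.95, adjusted p = 0.00367). FOS stayed at or under 1.97 RPKM in the 4 Rag2-null libraries and FOSB at or under 1.15 RPKM, with no call for either (adjusted p = 0.918 and 0.742).

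Among the knock-down libraries these genes followed the run of consecutive library numbers. EGR1 lay between 68.8 and 133 RPKM in the 4 libraries of run 4, against 3.79 to 17.6 RPKM in run 1, 18.8 to 63 RPKM in run 2 and 8.04 to 47.3 RPKM in run 3. FOSB lay between 4.39 and 11.1 RPKM in run 4 and at most 1.73 RPKM in the other 12 libraries. FOS lay between 21.8 and 60.3 RPKM in run 4, against 1.63 to 9.29 RPKM in run 1, 7.2 to 33.9 RPKM in run 2 and 1.65 to 20.4 RPKM in run 3, so that runs 2 and 4 overlapped. EGR2 followed, with 0.676 to 1.35 RPKM in run 4 and at most 0.382 RPKM in the others. What differed between the runs is not given by the labels.

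Within the runs no direction with the constructs was shared. In run 1 both knock-down libraries were above both controls in FOS, FOSB and EGR1. In run 2 both were below both controls in each of the 3 genes. In run 4 both were above both controls in FOS and FOSB but not in EGR1. For FOS that separation was narrow, with 27.7 RPKM with Ik4056 against 27.4 RPKM with Ren713. In run 3 the knock-down libraries lay on both sides of the controls in each of the 3 genes. Over the 4 runs the log2 fold change was 0.11 (SE 0.63) for FOS, 0.23 (SE 0.53) for FOSB and 0.14 (SE 0.70) for EGR1, with adjusted p of 0.946, 0.849 and 0.938. With the run as a block the standard errors were 0.51, 0.23 and 0.36, and none was called (adjusted p = 0.881, 0.444 and 0.777). These tests do not show that the constructs left the genes unaffected, since the standard errors are wide.

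**Figure D3:**
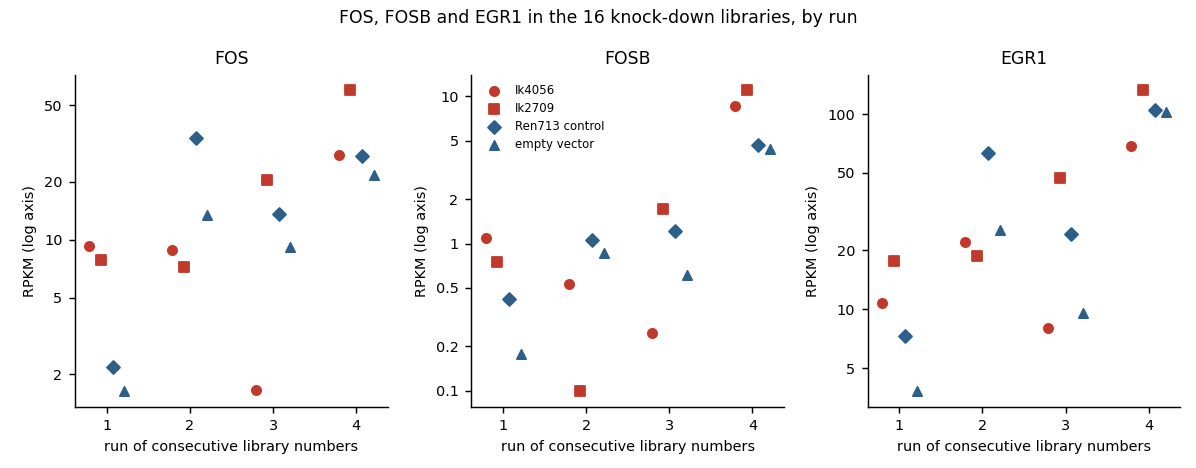
RPKM of FOS, FOSB and EGR1 on log axes in the 16 knock-down libraries, by run of consecutive library numbers and by construct. In run 4 EGR1 is at or above 68.8 RPKM and FOSB at or above 4.39 RPKM with each construct. In all 3 genes the knock-down libraries lie above the controls in run 1 and below them in run 2. In run 4 they lie above the controls in FOS and FOSB.

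IER2, a nuclear immediate early protein, was the highest of the inducible genes in most groups. It had 47.5 and 43.3 RPKM in deleted and 64.6 and 76.4 RPKM in control c-Kit-high cells, where it fell (log2 fold change -0.62, SE 0.13, adjusted p = 0.00526). The call did not hold without the second deleted (-0.56, adjusted p = 0.0509) or the second control library (-0.50, adjusted p = 0.0547). In pro-B cells it had 82.1 and 69.8 RPKM when deleted and 90.3 and 85.6 RPKM in controls (adjusted p = 0.28), and in Rag2-null cells 100.01 and 86.2 RPKM when deleted and 79.3 and 78.6 RPKM in controls (adjusted p = 0.245). The knock-down libraries averaged 137 ± 31.2 RPKM and the control libraries 102 ± 29.7 RPKM (SD, n = 8 each). This difference of 0.45 on the log2 scale was not called without a block (adjusted p = 0.105) but was called with the run as a block (SE 0.09, adjusted p = 0.00124) and with all 30 libraries in 1 fit (adjusted p = 0.0387), and the mean was higher with the knock-down constructs in 4 of 4 runs. With that block 5575 of the 10744 genes tested were called, against 2086 without it.

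EGR2 and EGR3, relatives of EGR1 that act in lymphocyte selection, had low levels throughout. EGR2 ranged from 0.0173 to 1.35 RPKM over the 30 libraries and EGR3 from 0 to 2.81 RPKM. EGR2 had 1.33 and 0.897 RPKM in deleted and 0.496 and 0.988 RPKM in control pro-B cells, the highest pro-B or pre-B levels. EGR3 was highest in pre-B cells, at 1.49 and 2.81 RPKM, and was called in no deletion comparison.

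Constructs of the same kind were compared as a background. Of the 9 genes tested none was called between Ik4056 and Ik2709, where limma called 3.33% of all genes, and none reached an unadjusted p under 0.05. With the run as a block JUND was called 0.28 higher on the log2 scale with Ik4056 (adjusted p = 0.00832). That block called 2407 of all 10744 genes tested, against 358 without it, so the JUND call does not stand out. Between Ren713 and the empty vector none was called and none reached an unadjusted p under 0.05. There limma called 0% of all genes, with 58 of 10744 at an unadjusted p under 0.05, and 9 genes with the run as a block, none of them among the 10.

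The genes also differed between control cells of different stage or background. Another 3 comparisons, each against pro-B controls, share the pro-B control libraries, so their values stand side by side. Wild-type pre-B cells, which also differ from the pro-B controls in genotype and in the granulocyte RNA given above, had 6 of 9 genes called, 66.7%, beside 68.8% of all genes. The c-Kit-high controls, which differ from the pro-B controls in granulocyte RNA as well, had 5 of 9, 55.6%, beside 50.8% of all genes. The Rag2-null controls had 5 of 9, 55.6%, beside 31.6% of all genes. The first 2 of these shares were near those of all genes.

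FOS, FOSB and EGR1 were called lower than in pro-B controls in all 3 comparisons. The heat shock genes, which respond to stress in cells, had lower sums as well, with a summed RPKM over 11 genes of 793 to 853 in pre-B, 1492 to 1687 in c-Kit-high control, 2793 to 3221 in Rag2-null control and 3710 to 3805 in pro-B control libraries. HSP90AA1, a chaperone, averaged 14.7, 41.4, 50.4 and 95.9 RPKM in the same order. The sums mainly follow HSP90AB1, with 3005 and 2914 RPKM in pro-B controls, and not every gene was lower. DNAJB1 had 58.9 and 60.3 RPKM in pro-B, 67.6 and 64.5 RPKM in c-Kit-high and 74.7 and 77.3 RPKM in Rag2-null controls, though 46.2 and 54.1 RPKM in pre-B. HSPE1 had 122 and 118 RPKM in pro-B and 174 and 206 RPKM in Rag2-null controls. HSPA1A and HSPB1 stayed under 1 RPKM in each library of these groups. HSPA1B had 0.277 and 0.730 RPKM in pro-B and 1.26 and 2.00 RPKM in c-Kit-high controls. In Rag2-null controls and pre-B cells HSPA1B stayed under 1 RPKM. The part of cell stress or handling in these differences was not tested. EGR1 had 6.26 and 5.91 RPKM in pre-B, 11.1 and 10.6 RPKM in c-Kit-high control, 2.98 and 7.8 RPKM in Rag2-null control and 23.4 and 32.6 RPKM in pro-B control libraries. Its log2 fold changes were -2.02 (adjusted p = 0.000205), -1.28 (adjusted p = 0.00743) and -2.28 (adjusted p = 0.000553) for pre-B, c-Kit-high and Rag2-null cells against pro-B controls, and the c-Kit-high call was lost without the second pro-B control (adjusted p = 0.0634). With all 30 libraries in 1 fit no EGR1 call remained (adjusted p = 0.136, 0.394 and 0.17). FOSB had 0.192 and 0.244 RPKM in pre-B, 0.341 and 2.97 RPKM in c-Kit-high control, 0.115 and 0.473 RPKM in Rag2-null control and 6.54 and 12.0 RPKM in pro-B control libraries. No library of these groups reached the pro-B controls, and the log2 fold changes were -3.02 (adjusted p = 0.00375), -2.10 (adjusted p = 0.0325) and -2.95 (adjusted p = 0.0118). FOS had 3.49 and 5.54 RPKM in pre-B, 1.76 and 8.45 RPKM in c-Kit-high control, 0.735 and 1.97 RPKM in Rag2-null control and 18.8 and 31.5 RPKM in pro-B control libraries. Its log2 fold changes were -2.23 (adjusted p = 0.0332), -2.31 (adjusted p = 0.0383) and -3.48 (adjusted p = 0.0109). The FOS call in pre-B cells was lost without any 1 of the 4 libraries (adjusted p = 0.0566 to 0.144). In c-Kit-high cells the FOS and FOSB calls were lost without the first pro-B control (adjusted p = 0.0715 and 0.0559), the second (0.162 and 0.163) or the first c-Kit-high control (0.207 and 0.198). In Rag2-null cells they were lost without the second pro-B control (0.07 and 0.0829) or the first Rag2-null control (0.0756 and 0.0723).

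IER2 was lower in pre-B cells, with 31.3 and 36.6 RPKM against 90.3 and 85.6 RPKM in pro-B controls (log2 fold change -1.35, SE 0.13, adjusted p = 1.55e-06). JUND was higher there, with 390 and 414 RPKM against 157 and 169 RPKM (log2 fold change 1.30, SE 0.19, adjusted p = 5.66e-05). Neither call was lost under any alternative tried. EGR3 was called 1.09 higher on the log2 scale in pre-B cells (adjusted p = 0.0232), with 0 and 1.1 RPKM in pro-B controls, having passed the filter partly through the pre-B libraries themselves. The call was lost without the first pro-B control (0.55, adjusted p = 0.235) or the second pre-B library (0.78, adjusted p = 0.166). JUNB was lower in c-Kit-high than in pro-B controls (log2 fold change -0.68, SE 0.14, adjusted p = 0.002), in every alternative. JUN was lower in Rag2-null than in pro-B controls, with 28.4 and 29.0 against 51.8 and 64.3 RPKM (log2 fold change -0.98, SE 0.19, adjusted p = 0.00253), a call lost with all 30 libraries in 1 fit (adjusted p = 0.0585). IER3 was lower than in pro-B controls in c-Kit-high controls (-0.89, adjusted p = 0.00567) and in Rag2-null controls (-0.96, adjusted p = 0.00684). These calls were lost without the first pro-B control (adjusted p = 0.0588 and 0.0683), and also without the first c-Kit-high control (0.0553) or the second Rag2-null control (0.0554).

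**Figure D4:**
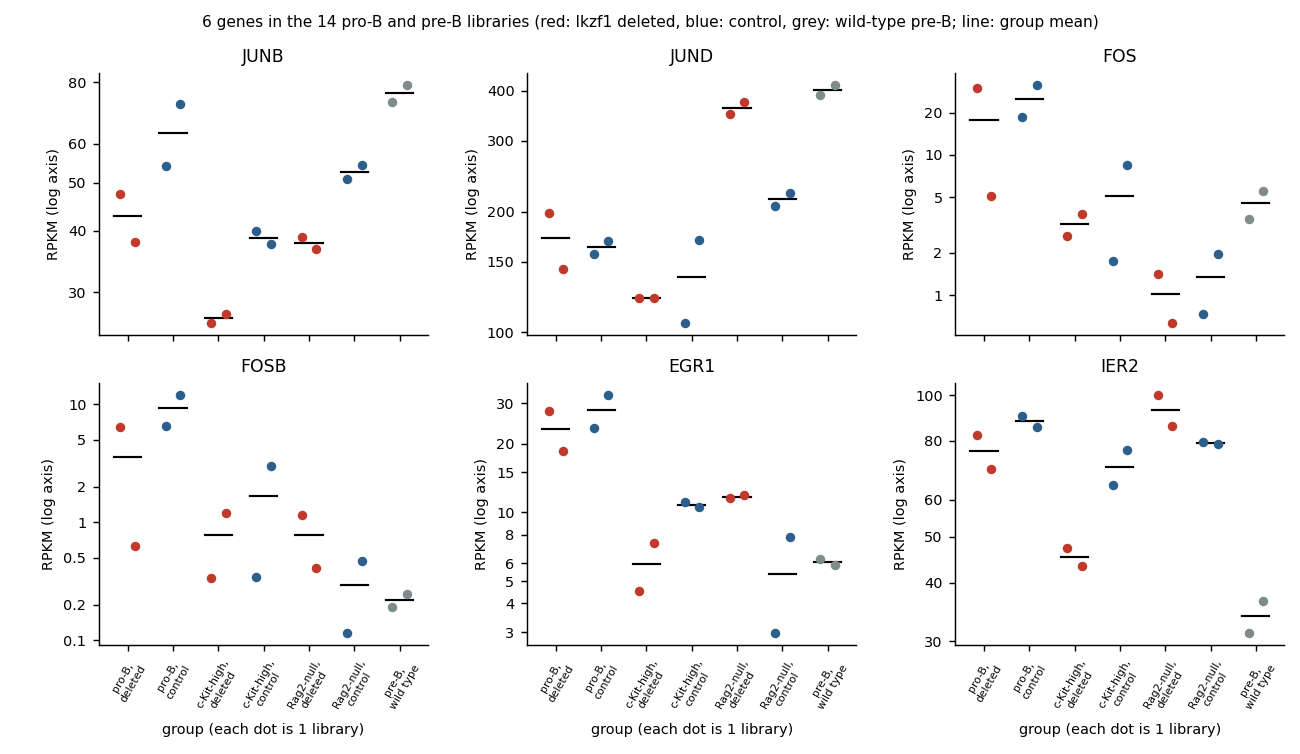
RPKM of JUNB, JUND, FOS, FOSB, EGR1 and IER2 on log axes in the 14 pro-B and pre-B libraries, by group, with group means as lines. FOS, FOSB and EGR1 are highest in the pro-B groups. JUND is highest in deleted Rag2-null and wild-type pre-B cells, at 350 to 414 RPKM.

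Ordered by group mean, neighbouring groups often overlapped in their libraries. For FOS and FOSB 9 of 10 neighbouring pairs of groups overlapped, and for IER3 5 of 10. The order of IER3 ran from Ik4056 (36.4 RPKM) and Ik2709 (34.6), which overlapped, through Ren713 (16.7), the empty vector (16.6) and deleted Rag2-null cells (15.6), which also overlapped as neighbours, to pre-B (6.09), deleted c-Kit-high (4.91), control pro-B (4.88), deleted pro-B (3.61), control c-Kit-high (2.20) and control Rag2-null cells (2.07). The order of JUN ran the other way between the experiments, with a mean of 69.5 RPKM in control c-Kit-high cells at the top and 3.33 RPKM with the empty vector at the bottom.

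Several other AP-1 subunits changed as well. Of 12 others, 9 were tested in each fit. In pro-B cells 3 rose and none fell, in c-Kit-high cells 3 rose and 2 fell, in Rag2-null cells 4 rose and none fell, and with the knock-down constructs 2 rose and none fell. These are 33.3%, 55.6%, 44.4% and 22.2% of those tested, beside 23.4%, 17.2%, 22.3% and 19.4% of all genes, so the last is near the background. BATF2 was among those that rose in pro-B, c-Kit-high and Rag2-null cells. It had 1.36 to 2.32 RPKM in the deleted libraries and at most 0.957 RPKM in the control and pre-B libraries. It thus passed the filter of 1 RPKM only through the groups in which it was high, and the deletion shares rest partly on it. The medians of the log2 fold changes of the tested subunits were 0.29, 0.49, 0.49 and 0.08. BATF, which pairs with JUN proteins in lymphocytes, had 67.1 and 66.6 RPKM in deleted and 16.8 and 14.8 RPKM in control pro-B cells (log2 fold change 2.02, SE 0.18, adjusted p = 6.92e-06). In c-Kit-high cells it averaged 9.06 RPKM when deleted and 4.65 RPKM in controls (log2 fold change 0.83, adjusted p = 0.00652). FOSL2, a FOS relative, averaged 3.56 RPKM in deleted and 0.911 RPKM in control c-Kit-high cells, 3.73 RPKM in deleted and 1.24 RPKM in control Rag2-null cells, and 4.61 RPKM with the knock-down and 2.15 RPKM with the control constructs (adjusted p = 0.00411, 0.0099 and 1.27e-05). JDP2, which pairs with JUN and represses, rose in pro-B (0.55), Rag2-null (0.89) and knock-down cells (0.68) and fell in c-Kit-high cells (-0.55), on the log2 scale (adjusted p = 0.0261, 0.00171, 0.0117 and 0.0318).

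Among 27 other immediate early genes, 25 were tested in the pro-B fit and 24 in the knock-down fit. In pro-B cells 7 rose and 7 fell, in c-Kit-high cells 2 rose and 4 fell, in Rag2-null cells 6 rose and none fell, and with the knock-down constructs 9 rose and 1 fell. These are 56%, 24%, 24% and 41.7% of those tested, beside 23.4%, 17.2%, 22.3% and 19.4% of all genes, so the share in Rag2-null cells is near the background. IER5L, a relative of IER2, rose in each setting, and averaged 21.7 RPKM in deleted and 1.35 RPKM in control Rag2-null cells (log2 fold change 3.28, adjusted p = 6.48e-07). NR4A1, an orphan nuclear receptor induced by antigen receptors, averaged 24.5 RPKM in deleted and 8.97 RPKM in control pro-B cells (adjusted p = 0.00501), and 40.3 RPKM in deleted and 10.5 RPKM in control Rag2-null cells (adjusted p = 0.000637). CD69, an activation antigen of lymphocytes, averaged 5.36 RPKM in deleted and 21.4 RPKM in control pro-B cells (log2 fold change -1.83, adjusted p = 0.000151) and 2.50 RPKM in deleted and 12.2 RPKM in control c-Kit-high cells (-1.90, adjusted p = 0.000161). CYR61, a secreted matrix protein, averaged 2.57 RPKM in deleted and 12.8 RPKM in control pro-B cells (log2 fold change -2.09, adjusted p = 0.000739).

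Of 22 genes upstream of the immediate early response, serum response factor partners and kinases, 21 were tested. In pro-B cells 2 rose and 1 fell, in c-Kit-high cells 1 rose and 1 fell, in Rag2-null cells 6 rose and none fell, and with the knock-down constructs 4 rose and 1 fell. These are 14.3%, 9.52%, 28.6% and 23.8% of those tested, below the 23.4% and 17.2% of all genes in the first pair of settings and near the 22.3% and 19.4% in the others. MKL1, a coactivator of the serum response factor, averaged 17.3 RPKM in deleted and 27.8 RPKM in control pro-B cells (log2 fold change -0.68, adjusted p = 0.00456). NRAS, a small GTPase upstream of ERK, averaged 18.4 RPKM in deleted and 26.2 RPKM in control c-Kit-high cells (-0.49, adjusted p = 0.0271), and 16.9 RPKM with the knock-down and 22.3 RPKM with the control constructs (-0.37, adjusted p = 0.00369). ELK3, an Ets factor that binds with the serum response factor, averaged 41.9 RPKM in deleted and 14.7 RPKM in control Rag2-null cells (log2 fold change 1.44, adjusted p = 0.000194), and 64.1 RPKM with the knock-down and 38.8 RPKM with the control constructs (0.70, adjusted p = 0.000185). MAP2K1, the kinase that activates ERK, averaged 58.6 RPKM with the knock-down and 34.5 RPKM with the control constructs (0.74, adjusted p = 1.32e-07). Of 11 heat shock genes 9 were tested. None was called in pro-B or Rag2-null cells, 1 fell in c-Kit-high cells (DNAJA1, a cochaperone, -0.56, adjusted p = 0.0368), and in knock-down cells 1 rose and 2 fell.

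Over the 30 libraries, the genes whose log2(RPKM + 1) followed each member most closely were sought among 11521 genes, as a description that rests on 11 groups of libraries rather than 30 independent points. IER3 was most like S1PR3 (Pearson's r = 0.956), CDK18 (0.930) and FERMT3 (0.920), and JUN most like RASSF3 (0.953), FOXO1 (0.934) and MAP3K3 (0.934). EGR1 was most like ETV4 (0.873), NUP214 (0.815) and ETV5 (0.810). FOS and FOSB shared PPP1R15A as their first gene (0.751 and 0.807), followed by DDX51 (0.748) and PPAN (0.736) for FOS and by EIF4G1 (0.791) and DDX27 (0.778) for FOSB. IER2 was most like ABCC1, ST6GALNAC4 and LRP12 (0.880, 0.880 and 0.879), EGR2 like SFRS5, NOM1 and EIF4G1 (0.825, 0.822 and 0.804), and EGR3 like CLDN15, ATP11A and TRAF3 (0.804, 0.793 and 0.782). JUNB was most like AKT1, ADPGK and FAM49B (0.771, 0.771 and 0.764), and JUND like SPG21, AI467606 and CIB1 (0.847, 0.782 and 0.765).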

How the data were processed

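RNA levels were read from the table the authors deposited, which gives RPKM per gene model and library, already normalized for gene length and depth by the authors. The submitters' processing notes name TopHat 1.4.1, HTSeq 0.5.3, DESeq 1.8.3 and the build mm9, with no role for each. The 10 genes and the other gene lists were chosen with earlier results of these data known. Values were tested as log2(RPKM + 1) with limma 3.58.1 (R 4.3.3, trend and robust variance), so folds of low genes are understated. The 14 pro-B and pre-B libraries formed one fit (11937 genes) and the 16 knock-down libraries another (10744 genes), with p-values adjusted by Benjamini-Hochberg over all genes. Genes outside the 10 were named, by rule, as the called list genes with the largest change and 3 RPKM or more as the higher group's mean, up to 3 per list, comparison and direction, and for likeness by the highest Pearson r over the 30 libraries.

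Library numbers of the knock-down experiment were taken as runs of a replicate number. In all 24 same-run pairs the deviations from group means correlated (lowest r 0.52), which accepts them as paired. No 2 libraries held identical values. Recovery of known changes was checked on simulated data. Alternatives were another pseudocount, no filter, quantile and median-ratio scaling, other sample sets, leaving out each library and the run as a block. Leaving out run 4 and the c-Kit-high libraries of several step sizes was added after seeing the data. Promoters came from RefSeq, build GRCm38.p6.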

Additional observations from a re-analysis of the deposited data

Results flagged for a closer look

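In 6 of 40 groups of 4 libraries tested, each a gene in a construct, the highest library stood apart from the other 3. Apart means that its gap to the next library was over 0.829 of the group's range. A rate of about 1 in 20 by chance holds for independent groups of normally distributed values. The 40 groups share the same 16 libraries and their RPKM are skewed, so the 6 cannot be set against that rate. In each of the 6 groups the library was that of run 4. They were JUN with Ik2709 (20.4 RPKM), FOSB with Ik4056 (8.66 RPKM), with Ik2709 (11.1 RPKM) and with the empty vector (4.39 RPKM), EGR2 with Ik4056 (1.35 RPKM) and EGR3 with Ik2709 (0.981 RPKM).

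The effect of Ikzf1 deletion differed between cells for JUN and IER3 by a test of the difference itself, over the same pro-B libraries. It was higher on the log2 scale in Rag2-null than in pro-B cells by 2.25 for JUN and by 2.80 for IER3, and higher in c-Kit-high than in pro-B cells by 1.47 for JUN and by 1.25 for IER3.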

How the results depend on the processing

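Of 99 fold changes of the 10 genes tested, 32 were called. None of the 32 changed sign under an alternative and 10 were called under every one. Another 9 were called under an alternative alone, and of the 58 called nowhere 35 changed sign under at least 1. Quantile or median-ratio scaling moved the median log2 fold change of all genes by up to about 0.1, in Rag2-null deletion to -0.069 and -0.039 against 0.057 without it. Where not stated otherwise the cause of a change was not tested.

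In Rag2-null deletion, where 5 of the genes were called, 2 were called with no filter, 2 after quantile normalization, 3 after median-ratio scaling and 2 with these groups alone. With all 30 libraries in 1 fit 1 gene was called in pro-B deletion, 1 in c-Kit-high deletion, 2 in Rag2-null deletion, 2 in c-Kit-high against pro-B controls, 3 in Rag2-null against pro-B controls and 1 in the c-Kit-high minus pro-B difference. That difference also gave 1 with a pseudocount of 0.1 and 1 with no filter. The counts in this paragraph stand without the shares of all genes called in the same fits. The totals over all genes fell too in the fits of fewer libraries given below, so a lower count does not show a smaller effect. Without the c-Kit-high libraries of several step sizes, 1 gene was called in c-Kit-high deletion (IER2, adjusted p = 0.0347), 2 between c-Kit-high and pro-B controls and 0 in the difference (limma), and the log2 fold change of JUND between those controls reversed to 0.058, against -0.28 with them. Leaving out 1 library at a time, and so testing with fewer samples, gave 1 to 3 genes in pro-B deletion, 0 to 1 in c-Kit-high deletion, 1 to 3 in Rag2-null deletion, 2 to 7 between c-Kit-high and pro-B controls (JUND from -0.62 to 0.058), 3 to 4 between Rag2-null and pro-B controls and 1 to 2 in the c-Kit-high difference.

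With the run as a replicate block 3 of the genes were called in the knock-down (JUN, IER2 and IER3) and 1 between Ik4056 and Ik2709, and over all genes 5575 against 2086 and 2407 against 358 without it. The block changed no other call of the 10 genes. Without run 4 JUN rose by 1.505 and IER3 by 0.98 on the log2 scale, and both were called. Over all genes, fitting the compared groups alone called 1350 against 2049 in c-Kit-high and 1547 against 2667 in Rag2-null deletion. Leaving out 1 library called as few as 1688 against 2791 in pro-B deletion. Depth limits the low genes, EGR2, EGR3 and FOSB, most.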
